A study of Mus musculus with 24 samples.

Results

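The genes described here were 10 heat shock genes of the cytosol and the mitochondria, Hspa1a, Hspa1b, Hspa8, Dnajb1, Hsph1, Hsp90aa1, Hspb1, Bag3, Hspd1 and Hspe1, of the 23787 mouse genes that had a probe on the array. A probe was assigned to a gene when the RefSeq transcript given for it in the array design carried that gene's symbol. No signal entered that assignment, but the genes themselves were chosen with earlier results of these data known. The 10 genes had 19 probes. TM3 is an immortalized line derived from mouse Leydig cells, the testosterone-producing cells of the testis, and all samples came from this line. The cells were held in suspension in electroporation cuvettes and were either exposed to nanosecond pulsed electric fields (nsPEF) or handled in the same way without pulses (sham). Exposure consisted of 80 pulses of 60 ns at an amplitude of 5.5 kV and a field of 14 kV/cm over 180 s. RNA was taken at 0, 4 and 24 h, which gave 6 groups of 4 arrays: sham at 0 h (S0), nsPEF at 0 h (E0), sham at 4 h (S4), nsPEF at 4 h (E4), sham at 24 h (S24) and nsPEF at 24 h (E24). The sham cells thus went through the same harvest and cuvette as the exposed cells, and untreated cells left in culture were not analysed here.

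Heat shock proteins are chaperones that bind unfolded protein, keep it from aggregating and pass it on for folding or degradation. In the cytosol, proteins of the HSP70 family work in a cycle of ATP hydrolysis that J-domain proteins start and nucleotide exchange factors end, and HSP90 takes over a set of late clients such as kinases and steroid receptors. In mitochondria, HSP60 and its lid HSP10 form a closed chamber in which imported proteins fold. The inducible genes among these are transcribed under heat shock factors, which bind repeats of the unit nGAAn in the promoter and are released for activity when unfolded protein accumulates.

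Signals are given as log2 of the background-subtracted signal set against each array's own 75th percentile, so that a value of 0 is a signal equal to that percentile. The 75th percentile lay between 300 and 787 units, with S4 replicate 4 at 787 and each other array at 532 or less, and 51.2% to 62.1% of probes per array were well above background. S4 replicate 4 also lay apart at the bright end: its probes with a mean value over 6 deviated by a median of -0.38 from the other 3 arrays of the group, against -0.16 to 0.22 on the other 23 arrays. Each time point was hybridised on a slide of its own, and sham and nsPEF samples lay in different rows of each slide, so that time and slide, and treatment and row, cannot be told apart. When arrays were scaled to their spike-in probes in place of the 75th percentile, the median of all tested probes moved to 0.70 (sham) and 0.54 (nsPEF) for 24 h against 0 h and to 0.66 and 0.37 for 24 h against 4 h, and every change at 24 h below is therefore a change relative to the bulk of the probes. Of the Leydig cell markers, Star, Cyp17a1, Nr5a1 and Gata4 were well above background on all 24 arrays, whereas Cyp11a1, Hsd3b1, Hsd3b6, Hsd17b3 and Lhcgr were above it on 0 arrays. Of the markers of other testis cells, 1 of 4 for Sertoli cells (Sox9), 0 of 3 for germ cells, 2 of 4 for macrophages (Cd68 and Csf1r), 2 of 3 for peritubular myoid cells (Acta2 and Cnn1) and 1 of 3 for endothelial cells (Pecam1) were above background on all arrays. The arrays measured the RNA of all cells in a sample, so that fewer cells with a transcript and less of it per cell cannot be told apart.

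The heat shock genes differed between the time points, and a difference between nsPEF and sham was not detectable with 4 arrays per group. Of the 10 genes, 9 had a probe that could be tested, and 7 of them were well above background on all 24 arrays. By the brightest probe of each gene, 4 genes rose in sham cells from 0 h to 4 h (Hsph1, Hspd1, Dnajb1 and Hspb1) and 0 fell at an adjusted p under 0.05 (limma, Benjamini-Hochberg over 37687 probes). Hspa1b and Hspb1 could be tested only because they were above background in S4, so that their direction at 4 h in sham cells was fixed by that choice. The call of Hspb1 among the 4 is therefore no test of a rise. In the same comparison 59.3% of all tested probes passed, 29% higher and 30.3% lower. With both directions counted, 4 of 9 heat shock genes was a smaller share than that of all probes. All 4 calls were rises, and 4 of 9 was a larger share than the 29% of probes that were higher. Whether the share of rises differed from that of all probes was not tested. In nsPEF-exposed cells 2 genes rose from 0 h to 4 h (Hsph1 and Hspd1) beside 61.3% of all probes, 32.8% higher and 28.4% lower. From 0 h to 24 h, 2 genes were higher (Hsph1 and Hspd1) and 2 lower (Bag3 and Dnajb1) in sham cells beside 36.7% of probes (18.1% higher and 18.6% lower). In nsPEF-exposed cells 2 were higher (Hsph1 and Hspd1) and 1 lower (Bag3) beside 42.4% (24.1% higher and 18.3% lower). From 4 h to 24 h, 4 genes were lower in sham cells (Hsph1, Hspd1, Dnajb1 and Bag3) beside 57.5% of probes (29% higher and 28.6% lower). In nsPEF-exposed cells 6 were lower (the same 4 with Hspa8 and Hspb1) beside 56.7% (28.4% higher and 28.3% lower). The call of Hspb1 there rested on 1 array, E4 replicate 1. With every probe counted, 10 of 18 probes rose in sham cells and 8 of 18 in nsPEF-exposed cells from 0 h to 4 h, with 0 lower in either. The median difference of the 7 genes measured throughout from 0 h to 4 h was 0.11 in sham cells, beside -0.01 over all probes, and 0.16 in nsPEF-exposed cells, beside 0.08.

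**Figure D1:**
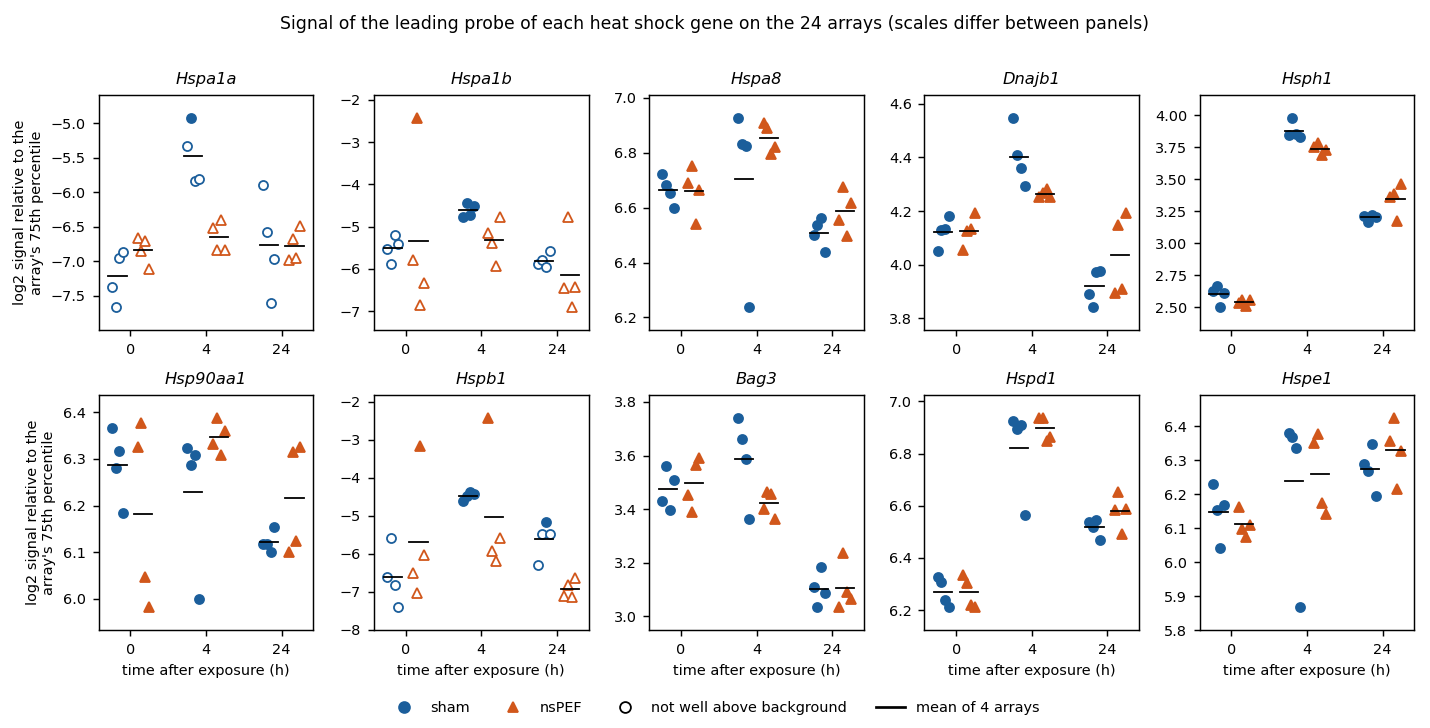
Log2 signal of the brightest probe of each of the 10 genes, relative to the array's 75th percentile, against time after exposure in h, with a circle for each sham array, a triangle for each nsPEF array, open symbols for arrays not well above background and a bar at the mean of each group. In Hsph1 all 8 values at 4 h (3.69 to 3.98) lay above all 8 at 0 h (2.50 to 2.67), and the values at 24 h lay between them.

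Hsph1, which encodes the large HSP110 chaperone that exchanges the nucleotide of HSP70 and helps it to dissolve aggregates, changed the most of the genes measured above background on every array. In sham cells Hsph1 read 2.63, 2.67, 2.50 and 2.61 on the 0 h arrays, 3.85, 3.98, 3.86 and 3.83 on the 4 h arrays and 3.22, 3.17, 3.22 and 3.21 on the 24 h arrays. In nsPEF-exposed cells Hsph1 read 2.53, 2.56, 2.51 and 2.56 on the 0 h arrays, 3.75, 3.79, 3.69 and 3.73 on the 4 h arrays and 3.36, 3.39, 3.18 and 3.46 on the 24 h arrays. The 3 time points did not overlap, in the order 4 h, 24 h and 0 h, in either treatment. The rise from 0 h to 4 h was 1.28 ± 0.05 (SE, log2) in sham cells, a 2.42-fold increase (limma, adjusted p = 3.73e-14), and 1.20 ± 0.05 in nsPEF-exposed cells, a 2.30-fold increase (limma, adjusted p = 9.27e-14). At 24 h the signal was still 1.52-fold (sham) and 1.75-fold (nsPEF) that at 0 h (limma, adjusted p = 3.44e-08 and 4.13e-10). A second probe to the same transcript ran from 0.96 to 1.07 over the 8 arrays at 0 h and from 2.29 to 2.58 over the 8 at 4 h, a rise of 1.43 in sham and 1.33 in nsPEF-exposed cells. The third probe, to another transcript of the gene, was well above background on 22 arrays and gave 0.98 ± 0.59 and 0.24 ± 0.59, neither past the threshold (limma, adjusted p = 0.161 and 0.742). The step down from 4 h to 24 h, -0.68 in sham and -0.39 in nsPEF-exposed cells, was -0.05 and -0.01 on the spike-in scale.

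Hspd1 encodes HSP60, the chaperonin of the mitochondrial matrix. Hspd1 signals in sham cells were 6.33, 6.31, 6.24 and 6.21 for 0 h, 6.92, 6.89, 6.91 and 6.57 for 4 h and 6.54, 6.52, 6.55 and 6.47 for 24 h. Hspd1 signals in nsPEF-exposed cells were 6.34, 6.30, 6.22 and 6.21 for 0 h, 6.94, 6.93, 6.85 and 6.87 for 4 h and 6.58, 6.65, 6.49 and 6.59 for 24 h. All 8 values at 4 h lay above all 8 at 0 h, and S4 replicate 4 was the lowest array of its group. The rise from 0 h to 4 h was 0.55 ± 0.06 in sham cells (1.47-fold, limma adjusted p = 2.36e-07) and 0.63 ± 0.06 in nsPEF-exposed cells (1.55-fold, limma adjusted p = 3.67e-08). At 24 h the difference from 0 h was 0.25 and 0.31 (limma, adjusted p = 0.00486 and 0.000631). A second probe, to another transcript, rose by 0.74 and 0.75 to 4 h and stood 0.38 and 0.60 above 0 h at 24 h. The fall from 4 h to 24 h was -0.31 in sham and -0.32 in nsPEF-exposed cells relative to the 75th percentile and turned to 0.32 and 0.06 on the spike-in scale.

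Hspe1 encodes HSP10, the lid of the HSP60 chamber, and lies next to Hspd1 in opposite orientation. For sham cells the Hspe1 arrays gave 6.23, 6.15, 6.04 and 6.17 (0 h), 6.38, 6.37, 6.34 and 5.87 (4 h) and 6.29, 6.27, 6.35 and 6.19 (24 h). For nsPEF-exposed cells the Hspe1 arrays gave 6.16, 6.10, 6.07 and 6.11 (0 h), 6.35, 6.38, 6.17 and 6.14 (4 h) and 6.36, 6.42, 6.22 and 6.33 (24 h). The groups at 0 h and 4 h overlapped in both treatments, with S4 replicate 4 below every array at 0 h. In nsPEF-exposed cells the 24 h arrays all lay above the 0 h arrays, a difference of 0.22 ± 0.09 that did not pass (limma, adjusted p = 0.0551). The differences from 0 h to 4 h, 0.09 ± 0.09 in sham and 0.15 ± 0.09 in nsPEF-exposed cells, did not pass (limma, adjusted p = 0.413 and 0.157). Without S4 replicate 4 the sham difference was 0.21 and passed (limma, adjusted p = 0.00724). The 3 probes to this transcript disagreed. The second rose by 0.38 and 0.44 to 4 h (limma, adjusted p = 1.69e-05 and 2.51e-06) and was still 0.29 and 0.45 above 0 h at 24 h. The third gave -0.27 and -0.25 at 4 h, which did not pass, and was higher at 24 h than at 4 h by 0.40 and 0.43 (limma, adjusted p = 0.0121 and 0.00724).

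Hspa8 encodes HSC70, the HSP70 protein that cells make at all times. In sham cells Hspa8 read 6.72, 6.68, 6.65 and 6.60 on the 0 h arrays, 6.93, 6.83, 6.82 and 6.24 on the 4 h arrays and 6.50, 6.54, 6.56 and 6.44 on the 24 h arrays. In nsPEF-exposed cells Hspa8 read 6.69, 6.75, 6.54 and 6.66 on the 0 h arrays, 6.91, 6.89, 6.79 and 6.82 on the 4 h arrays and 6.55, 6.68, 6.50 and 6.62 on the 24 h arrays. The sham values at 4 h spanned those at 0 h because S4 replicate 4 was the lowest of the 8 arrays and the other 3 were the highest. The brightest probe differed by 0.04 ± 0.10 in sham and 0.19 ± 0.10 in nsPEF-exposed cells from 0 h to 4 h, neither past the threshold (limma, adjusted p = 0.765 and 0.106), and without S4 replicate 4 the sham difference was 0.20 (limma, adjusted p = 0.00551). The other 3 probes, all to the same transcript, rose by 0.50, 0.45 and 0.42 in sham cells (limma, adjusted p = 6.76e-05, 0.000171 and 0.00604). In nsPEF-exposed cells the same probes gave 0.33 and 0.34, which passed, and 0.21, which did not (limma, adjusted p = 0.15). From 4 h to 24 h all 4 probes were lower in nsPEF-exposed cells and 3 of 4 in sham cells relative to the 75th percentile, with -0.27 for the brightest probe in nsPEF-exposed cells (limma, adjusted p = 0.0294), which was 0.11 on the spike-in scale.

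Hspa1a and Hspa1b encode the HSP70 proteins that most cells make only under stress, and they were close to background in these cells. The Hspa1b values were -5.53, -5.88, -5.20 and -5.41 in S0, -4.77, -4.44, -4.72 and -4.52 in S4 and -5.88, -5.79, -5.96 and -5.58 in S24. They were -5.79, -2.43, -6.84 and -6.34 in E0, -5.16, -5.38, -5.93 and -4.77 in E4 and -6.46, -4.78, -6.91 and -6.43 in E24. The probe was well above background on the 4 arrays of S4 and on E0 replicate 2, and it could be tested only through S4, the group where it was high. The S4 values lay above all values of S0 and S24. The group mean of S4 was at least 1.81-fold that of S0 and 2.23-fold that of S24. For this bound each dim array was set to the lowest signal that counted as well above background on it. The probe's own value was used if it was higher. The differences did not pass (limma, 0.89 ± 0.64 with adjusted p = 0.242 for 4 h against 0 h). Without E0 replicate 2, the highest value of all 24 arrays, the adjusted p was 0.0311 (limma). That array belongs to neither S4 nor S0 and entered only the spread that the groups share. Since the probe could be tested only through S4, neither p is a test of a rise. The Hspa1a probe was well above background on 1 of 24 arrays, S4 replicate 2, and was not tested. Its values were -5.32, -4.92, -5.84 and -5.80 in S4, against -7.37, -7.67, -6.95 and -6.86 in S0 and -6.52, -6.83, -6.41 and -6.83 in E4. They ran from -7.61 to -5.90 in S24, from -7.11 to -6.67 in E0 and from -6.99 to -6.49 in E24. Since all but S4 replicate 2 were not well above background, no difference is read from them. The coding sequences of the 2 genes are nearly identical, and a probe of either may bind transcripts of both.

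The promoters of the pair show how close the genes are, and both carry the same match to the heat shock element. In the RefSeq table for GRCm38.p6 the 250 bases before the start of Hspa1a (chr17:34972157-34972406, minus strand) and of Hspa1b (chr17:34959239-34959488, minus strand) differed at 3 positions. They are printed 5′ to 3′, with capitals for the match to GAANNTTC, that is, 2 units of the heat shock element head to head.
Hspa1a: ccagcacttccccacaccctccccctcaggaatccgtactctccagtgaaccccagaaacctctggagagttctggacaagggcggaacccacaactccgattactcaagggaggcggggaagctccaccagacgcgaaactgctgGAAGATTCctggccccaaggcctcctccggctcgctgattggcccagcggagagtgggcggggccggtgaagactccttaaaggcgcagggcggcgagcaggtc
Hspa1b: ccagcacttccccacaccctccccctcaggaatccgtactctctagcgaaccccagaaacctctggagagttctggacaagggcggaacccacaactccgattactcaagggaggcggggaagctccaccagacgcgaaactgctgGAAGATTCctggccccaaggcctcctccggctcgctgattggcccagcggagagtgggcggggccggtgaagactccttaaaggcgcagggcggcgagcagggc
The match lay from base -104 to base -97 relative to the start in both genes.

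Dnajb1 encodes HSP40, the J-domain protein that hands substrates to HSP70 and starts its ATP hydrolysis. Dnajb1 signals in sham cells were 4.05, 4.13, 4.13 and 4.18 for 0 h, 4.55, 4.41, 4.36 and 4.29 for 4 h and 3.89, 3.84, 3.97 and 3.98 for 24 h. Dnajb1 signals in nsPEF-exposed cells were 4.05, 4.13, 4.13 and 4.19 for 0 h, 4.25, 4.27, 4.28 and 4.25 for 4 h and 3.89, 4.15, 3.91 and 4.19 for 24 h. All 8 arrays at 4 h lay above all 8 at 0 h, whereas the nsPEF-exposed values at 24 h overlapped with those at 0 h. The rise from 0 h to 4 h was 0.28 ± 0.07 in sham cells (1.21-fold, limma adjusted p = 0.00104), and the 0.14 ± 0.07 in nsPEF-exposed cells did not pass (limma, adjusted p = 0.0799). At 24 h sham cells were 1.15-fold below 0 h relative to the 75th percentile (limma, adjusted p = 0.0202), a difference of -0.20 that was 0.48 on the spike-in scale and -0.22 relative to the median of all probes there. In nsPEF-exposed cells the difference at 24 h was -0.09 (limma, adjusted p = 0.279), or 0.38 on the spike-in scale.

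Bag3 encodes a nucleotide exchange factor that links HSP70 to small heat shock proteins and to the removal of aggregates by autophagy. For sham cells the Bag3 arrays gave 3.43, 3.56, 3.40 and 3.51 (0 h), 3.74, 3.66, 3.59 and 3.36 (4 h) and 3.11, 3.03, 3.18 and 3.09 (24 h). For nsPEF-exposed cells the Bag3 arrays gave 3.45, 3.39, 3.56 and 3.59 (0 h), 3.40, 3.46, 3.45 and 3.36 (4 h) and 3.03, 3.24, 3.09 and 3.06 (24 h). The 8 arrays at 24 h lay below all arrays of the earlier times in both treatments. At 24 h Bag3 was 1.29-fold lower than at 0 h in sham cells (-0.37 ± 0.07, limma adjusted p = 0.000351) and 1.31-fold lower in nsPEF-exposed cells (-0.39 ± 0.07, limma adjusted p = 0.000175), relative to the 75th percentile. On the spike-in scale these differences were 0.31 and 0.08, or -0.39 and -0.46 relative to the median of all probes there. From 0 h to 4 h Bag3 gave 0.11 ± 0.07 in sham and -0.08 ± 0.07 in nsPEF-exposed cells, neither past the threshold (limma, adjusted p = 0.177 and 0.357), and without S4 replicate 4 the sham value was 0.19 (limma, adjusted p = 0.0144).

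Hsp90aa1 encodes the inducible HSP90 of the cytosol. In sham cells Hsp90aa1 read 6.37, 6.28, 6.32 and 6.18 on the 0 h arrays, 6.32, 6.29, 6.31 and 6.00 on the 4 h arrays and 6.12, 6.12, 6.10 and 6.15 on the 24 h arrays. In nsPEF-exposed cells Hsp90aa1 read 6.33, 6.38, 6.05 and 5.98 on the 0 h arrays, 6.33, 6.39, 6.31 and 6.36 on the 4 h arrays and 6.10, 6.32, 6.13 and 6.33 on the 24 h arrays. The groups overlapped between 0 h and 4 h, with S4 replicate 4 as the lowest of the sham arrays. The brightest probe gave -0.06 ± 0.09 in sham and 0.16 ± 0.09 in nsPEF-exposed cells from 0 h to 4 h (limma, adjusted p = 0.598 and 0.101), neither past the threshold. The second probe, to the same transcript, rose by 0.31 in nsPEF-exposed cells (1.24-fold, limma adjusted p = 0.00247) and gave 0.16 in sham cells, which did not pass (limma, adjusted p = 0.104). The nsPEF-exposed cells were then lower at 24 h than at 4 h by this probe (-0.26, limma adjusted p = 0.0107).

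Hspb1 encodes HSP27, a small heat shock protein that holds unfolded protein without ATP. Its values were -6.61, -5.60, -6.83 and -7.41 in S0, -4.63, -4.49, -4.37 and -4.44 in S4 and -6.29, -5.49, -5.16 and -5.47 in S24. They were -6.51, -7.02, -3.16 and -6.03 in E0, -2.43, -5.92, -6.20 and -5.58 in E4 and -7.12, -6.83, -7.14 and -6.64 in E24. The 4 arrays of S4 were all well above background and lay above all sham arrays of the other times, and single arrays were above background in E0, E4 and S24. The probe could be tested only through S4, so that the direction of its rise from 0 h to 4 h in sham cells was fixed by that choice. The group means differed by at least 2.27-fold by the same bound as for Hspa1b. The measured difference was 2.13 ± 0.73 (limma, adjusted p = 0.0168). With normexp background correction the difference was 0.08 (limma, adjusted p = 0.712), and without S0 replicate 4 the adjusted p was 0.0531. The lower value at 24 h than at 4 h in nsPEF-exposed cells (limma, adjusted p = 0.0328) rested on E4 replicate 1. Of the 4 arrays of E4 only this 1 was well above background, so that no size is given. Without that array the adjusted p was 0.166 (limma).

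**Figure D2:**
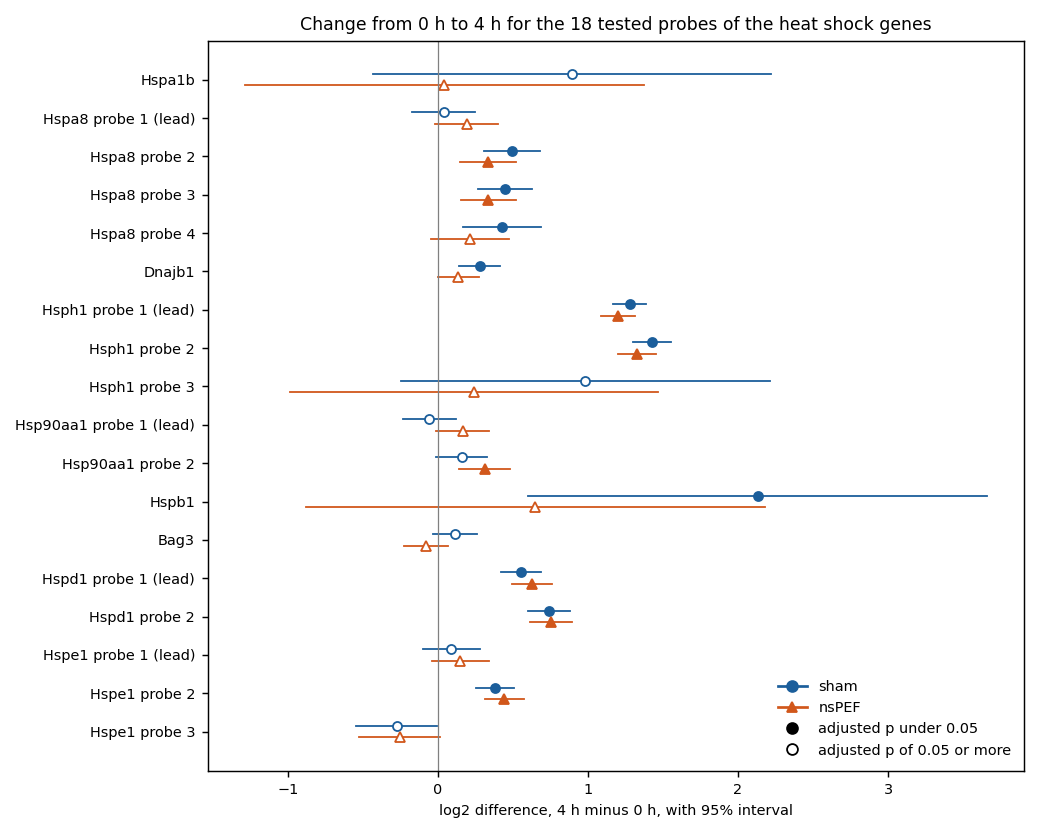
Log2 difference between 4 h and 0 h with its 95% interval for each of the 18 tested probes of the heat shock genes, with sham and nsPEF-exposed cells in different colours. The brightest Hsph1 probe (1.28 in sham and 1.20 in nsPEF-exposed cells) and the brightest Hspd1 probe (0.55 and 0.63) lay to the right of 0 with narrow intervals, whereas the intervals of Hspa1b, Hspb1 and the third Hsph1 probe were wide and the third Hspe1 probe lay to the left of 0.

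S4 replicate 4 read low for 4 genes whose brightest probe had a mean value over 6. On this array Hspa8 was 6.24, Hspd1 6.57, Hspe1 5.87 and Hsp90aa1 6.00, each the lowest of its group. Without it, 7 genes rose from 0 h to 4 h in sham cells in place of 4, with Hspa8, Hspe1 and Bag3 added, beside 57.1% of all probes in the same fit (28.3% higher and 28.8% lower). Both counts hold Hspb1, whose call is no test of a rise. The mean value of Bag3 lay between 2 and 4, where probes on this array deviated by a median of -0.02. The part of this array's brightness in the values of these genes was not tested.

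**Figure D3:**
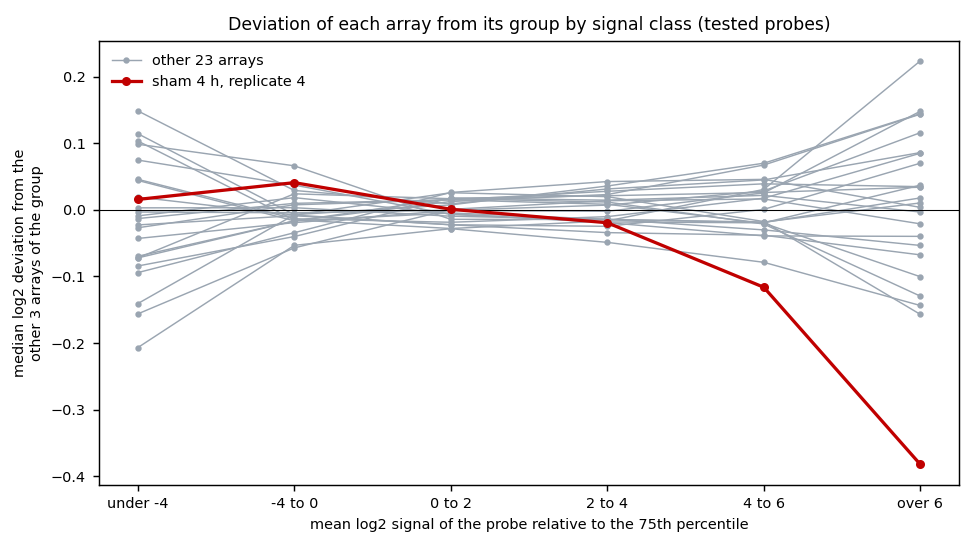
Median log2 deviation of each array from the other 3 arrays of its group, for tested probes sorted into classes by their mean log2 signal relative to the 75th percentile. S4 replicate 4 departed from the other arrays in the class over 6, at -0.38 over 814 probes, and lay at -0.12 in the class from 4 to 6.

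The promoters were searched for the heat shock element from 250 bases before to 50 bases after each RefSeq start (GRCm38.p6, both strands). Windows were found for 8 of the 10 genes, 11 windows in all, since Dnajb1, Hsph1 and Hspd1 had more than 1 start; Hspa8 and Hsp90aa1 had no entry. A run of 3 units (GAANNTTCNNGAA or TTCNNGAANNTTC) occurred in 4 of the 11 windows, both of Hsph1, 1 of Hspd1 and that of Hspe1, and in 198 of all 32851 windows of the table (0.603%). A run of 2 units (GAANNTTC or TTCNNGAA, which the longer motif contains) occurred in 8 of the 11 and in 15.1% of all windows. No match was found in the windows of Dnajb1 or at the first start of Hspd1, which says only that these letters were not in the windows. The 2 windows of Hsph1 overlap and hold the same run of 3 units. The stretch of 30 bases around the match is printed for the other genes with a match, Hsph1, Hspd1, Hspe1, Hspb1 and Bag3. Whether the matches went with the time course of a gene was not tested. In the stretches, capitals mark the units with their spacers.
Hsph1 (chr5:149636287-149636316, minus strand): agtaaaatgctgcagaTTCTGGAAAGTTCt
Hspd1 (chr1:55088053-55088082, minus strand, second start): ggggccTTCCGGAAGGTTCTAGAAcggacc
Hspe1 (chr1:55088053-55088082, plus strand): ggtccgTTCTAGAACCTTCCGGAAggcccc
Hspb1 (chr5:135887801-135887830, plus strand): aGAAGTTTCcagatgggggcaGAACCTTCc
Bag3 (chr7:128523603-128523632, plus strand): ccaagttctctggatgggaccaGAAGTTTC
The elements of Hspd1 and Hspe1 are the same genomic stretch read on opposite strands: the 2 windows shared 285 bases, and the element lay from base -150 to -121 relative to the second Hspd1 start and from -95 to -66 relative to the Hspe1 start. In Hsph1 and Bag3 the stretch covered bases 21 to 50 after the start. These matches are letters in a window and were not tested as binding sites.

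Exposure to nsPEF was compared with sham at each time point, to ask whether the pulses changed these genes beyond the handling. In this comparison 0.103% of all tested probes passed at 0 h (0.0557% higher and 0.0478% lower after nsPEF), 3.48% at 4 h (1.74% each way) and 5.27% at 24 h (2.49% higher and 2.78% lower), and 0 of the 9 heat shock genes passed at any time (limma). At an unadjusted p under 0.05 there were 0, 3 and 1 of the 9 genes, beside 9.6%, 21.3% and 22.2% of all probes, and the plain analysis of variance also called 0 at each time. At 0 h the differences of the 7 genes that were well above background throughout ran from -0.10 to 0.02, and their 95% intervals reached from -0.28 to 0.21. The intervals thus allowed changes of up to 1.22-fold lower and 1.15-fold higher. At 4 h the differences ran from -0.17 to 0.15 with intervals from -0.31 to 0.36, which allowed up to 1.24-fold lower and 1.28-fold higher. At 24 h they ran from 0.00 to 0.15 with intervals from -0.14 to 0.29, which allowed up to 1.10-fold lower and 1.22-fold higher.

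The 3 genes with an unadjusted p under 0.05 at 4 h were all lower after nsPEF relative to the 75th percentile, and on the spike-in scale their differences turned to 0.05 (Hsph1), 0.05 (Dnajb1) and 0.02 (Bag3), where the median of all probes was 0.19 and Hsp90aa1 passed at 0.31 (limma, adjusted p = 0.0384). For Hsph1 the E4 values of 3.75, 3.79, 3.69 and 3.73 all lay below the S4 values of 3.85, 3.98, 3.86 and 3.83, a difference of -0.14 ± 0.05 (limma, adjusted p = 0.138). For Dnajb1 the E4 values of 4.25, 4.27, 4.28 and 4.25 lay below the S4 values of 4.55, 4.41, 4.36 and 4.29, a difference of -0.14 ± 0.07 (limma, adjusted p = 0.227). Of the 7 genes these 2 did not overlap between treatments at 4 h, where 13.9% of all tested probes did not overlap and 3.48% passed the test. Bag3 gave -0.17 ± 0.07 (limma, adjusted p = 0.184) with overlapping groups, and without S4 replicate 4 it was lower, at -0.24, and passed (limma, adjusted p = 0.0437). With values centred within blocks of 16 rows of spots, Hsph1 and Dnajb1 passed at 4 h, at -0.25 each. Hspa1a was not tested, and since it was well above background on 1 of the 8 arrays at 4 h no size of a difference is given.

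At 24 h Hsph1 was the gene with an unadjusted p under 0.05: it was 0.15 ± 0.05 higher after nsPEF (limma, adjusted p = 0.111), and 0.20 without E24 replicate 3 (limma, adjusted p = 0.0201). Its second probe gave 0.19 (limma, adjusted p = 0.0762). Whether the effect of nsPEF differed between the time points was tested by the interaction of treatment and time, which 0.361% of all probes and 0 of the 9 genes passed (limma), with 2 genes, Hsph1 and Dnajb1, at an unadjusted p under 0.05 beside 16.4% of all probes and 0 by the plain analysis of variance. The lowest adjusted p was 0.126, for Hsph1, and the highest among the 7 genes measured throughout was 0.870, for Hspe1. Averaged over the 3 times, 9.3% of all probes (4.43% higher and 4.87% lower) and 0 of the 9 genes differed between nsPEF and sham (limma), with 0 of the genes and 26.5% of all probes at an unadjusted p under 0.05.

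**Figure D4:**
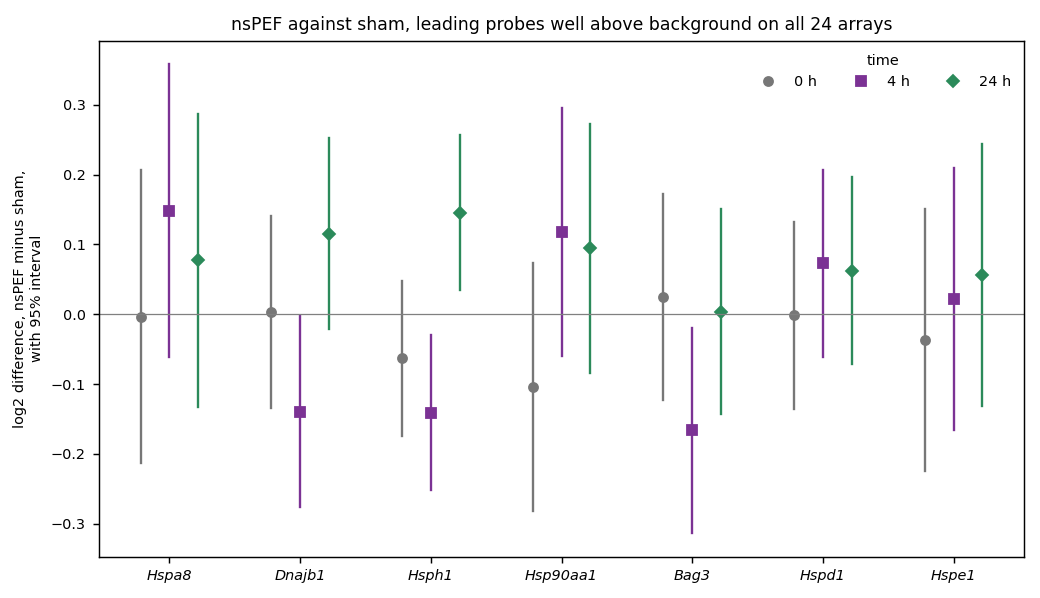
Log2 difference between nsPEF-exposed and sham cells, with its 95% interval, at 0, 4 and 24 h for the 7 heat shock genes well above background on all 24 arrays. The differences lay between -0.17 and 0.15, with Hsph1 at -0.14 at 4 h and 0.15 at 24 h; the bars are per gene and are not adjusted for the number of genes.

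The other chaperone genes were read in lists by the brightest probe of each gene, and the counts below stand beside 29% higher and 30.3% lower among all probes for sham cells at 4 h against 0 h. Of 22 partners and relatives of HSP70, 12 rose and 5 fell, with a median difference of 0.21 beside -0.01 for all probes. Bag2, an exchange factor that slows the ubiquitin ligase of HSP70 clients, rose by 1.04 (2.05-fold) in sham and 0.94 in nsPEF-exposed cells. Hspa2, the HSP70 protein best known from germ cells, gave -0.79 and -0.92, and Dnajb5, a J-domain protein, gave -0.72 and -0.48. Dnaja4, another J-domain protein, was lower in E4, where 0 of 4 arrays were well above background, than in E0 (limma, adjusted p = 1.92e-05). Its group means differed by at least 2.89-fold. Dnaja4 also fell in sham cells, where 2 of 4 arrays at 4 h were above background and no size is given. Each of these 4 genes thus passed in the same direction in both treatments. At 24 h Hspa4l, a relative of Hsph1, was 0.74 (sham) and 0.66 (nsPEF) above 0 h.

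Of the 12 genes of HSP90 and its co-chaperones, 6 rose and 3 fell in sham cells at 4 h, with a median of 0.17. Cdc37l1, a relative of the factor that brings kinases to HSP90, rose by 1.64 (3.11-fold), Chordc1, an HSP90-binding protein, by 1.11 and Ppid, a prolyl isomerase bound to HSP90 in steroid receptor complexes, by 1.06. In nsPEF-exposed cells the same genes rose by 1.41, 1.01 and 1.01. The myosin chaperone Unc45a rose by 0.47 and 0.35.

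Of the 14 subunits of the cytosolic chaperonin TRiC and of prefoldin, which fold actin and tubulin, 10 rose and 1 fell in sham cells at 4 h, with a median of 0.27, and 8 rose and 2 fell in nsPEF-exposed cells. Pfdn4 rose by 1.01, Cct7 by 0.48, Cct6a by 0.46 and Cct3 by 0.42 in sham cells. Of the small heat shock proteins 7 of 8 could be tested, and 1 rose and 1 fell: Cryab, the alpha B crystallin, rose by 1.25 (2.38-fold) in sham and 1.38 in nsPEF-exposed cells, and Hspb6 gave -1.18 and -1.29.

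The mitochondrial chaperones and proteases other than Hspd1 and Hspe1 moved both ways. Of 17 genes, 7 rose and 8 fell in sham cells at 4 h, with a median of -0.11. Hscb, a J-domain protein of iron-sulphur cluster assembly, was lower at 4 h, with -1.51 (sham) and -1.53 (nsPEF), and so was Spg7, a subunit of a protease of the inner membrane, with -0.72 and -0.87. Grpel2, a nucleotide exchange factor of mitochondrial HSP70, rose by 1.12 and 1.04, and the protease subunit Afg3l2 by 0.48 and 0.48.

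Among 8 heat shock factors and their regulators, 3 rose and 2 fell in sham cells at 4 h. Hsf1, the main heat shock factor, rose by 0.51 in sham and 0.60 in nsPEF-exposed cells, and Hsbp1, a small protein that binds it, by 0.49 and 0.42. Hdac6, a deacetylase of tubulin and HSP90, gave -0.81 and -0.85, and Hsf2bp, which binds Hsf2, gave -0.63 in sham cells and also fell in nsPEF-exposed cells, where 1 of 4 arrays at 4 h was above background and no size is given. Of 14 chaperones of the endoplasmic reticulum, listed for comparison, 3 rose and 7 fell, with a median of -0.15. Sdf2l1, a cofactor of the reticulum's J-domain proteins, gave -1.04 and Dnajb9 -0.66, whereas Hyou1, an exchange factor of the HSP70 of the reticulum, rose by 0.77 and Dnajb11 by 0.54. No test compared these lists with each other.

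At 24 h against 0 h in sham cells, beside 18.1% higher and 18.6% lower among all probes, the HSP70 list held 5 genes higher and 5 lower, the HSP90 list 5 and 1, TRiC and prefoldin 3 and 2, the mitochondrial list 2 and 2, the small heat shock proteins 0 and 2, the heat shock factors 1 and 3 and the endoplasmic reticulum 6 and 2, whereas on the spike-in scale every gene called in these lists was higher. Cdc37l1, Chordc1 and Ppid were still 0.77, 0.58 and 0.43 above 0 h in sham and 0.62, 0.46 and 0.40 in nsPEF-exposed cells. Grpel2, with 0.01 and 0.12, and Cryab, with -0.17 and 0.04, did not pass the threshold at 24 h in either treatment.

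**Figure D5:**
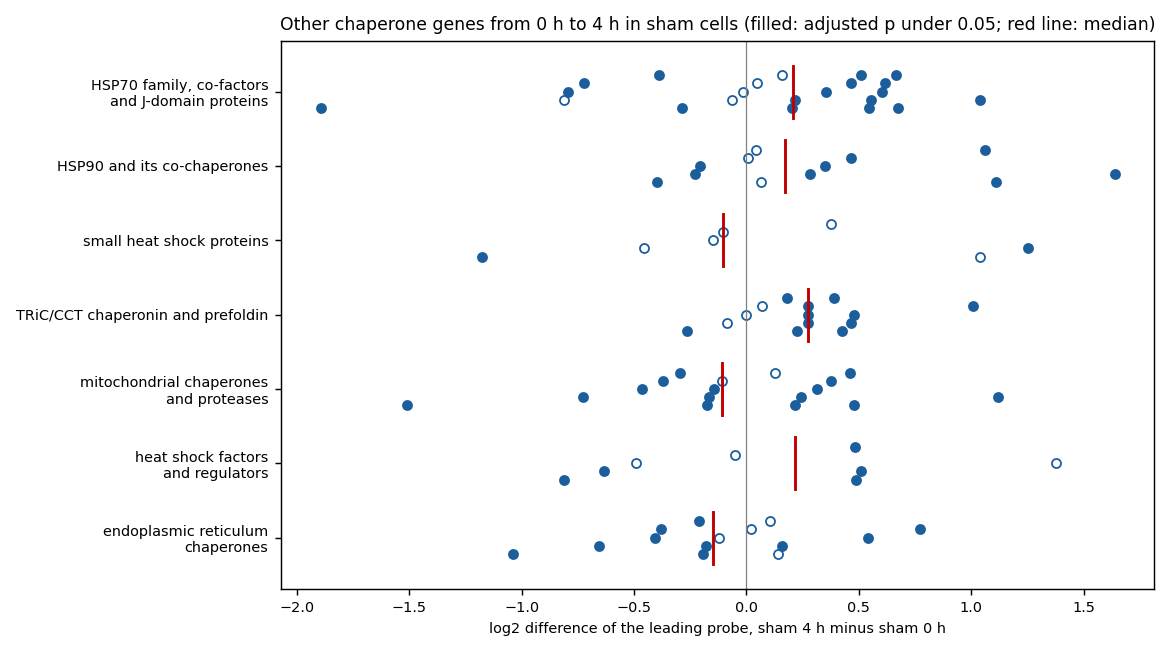
Log2 difference of the brightest probe of each gene between 4 h and 0 h in sham cells, by list of chaperone genes, with filled points for an adjusted p under 0.05 and a red line at the median of each list. The medians ran from -0.15 (endoplasmic reticulum) to 0.27 (TRiC and prefoldin) beside -0.01 for all probes, and each list held called genes on both sides of 0.

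At single time points 5 genes of these lists differed between nsPEF and sham, against 3.48% of all probes at 4 h and 5.27% at 24 h. Pfdn1, a prefoldin subunit, was lower after nsPEF at 4 h (-0.24, limma adjusted p = 0.0125), as was Hsf2, another heat shock factor (-0.25, limma adjusted p = 0.0166). Sdf2l1 was higher at 4 h (0.29, limma adjusted p = 0.0161). At 24 h Hspa2 (-0.27, limma adjusted p = 0.0342) and Hscb (-0.26, limma adjusted p = 0.0334) were lower. Averaged over the 3 times, Pfdn1 (-0.16), Hspa2 (-0.17) and Hsf2 (-0.12) were lower and Hspa12a, a distant relative of HSP70, was higher, against 9.3% of all probes (limma, adjusted p = 0.00292, 0.0177, 0.0224 and 0.0264). Hspa12a was well above background on 3 of 24 arrays, 2 of E0 and 1 of E4, so that no size is given for it. It could be tested only through E0, so that its direction was fixed by that choice.

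The time course of Hspd1 over the 24 arrays was most like those of Higd1a, Ddx39a and Lamp3, with Pearson correlations of 0.971, 0.971 and 0.967 among 15997 genes outside the lists. Hspa1b was well above background on 5 of the 24 arrays, so that no genes are named as like it. Among the 7 genes measured throughout, Hsph1 and Hspd1 ran closest together (0.945), followed by Dnajb1 and Bag3 (0.787) and by Hspa8 and Hsp90aa1 (0.769). These correlations describe arrays that share slides and time points.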

How the data were processed

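RNA from 24 samples of TM3 cells was measured on 1-colour Agilent arrays, 4 per group, and per the labels the signals were extracted with Agilent Feature Extraction 12.0. The authors deposited scanner files of spot intensity with background subtracted (the processed signal) and a table of log2 values, which is used here only as an alternative. Both came without counts, so the number of arrays limits the precision.

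Values are log2 of the processed signal minus each array's 75th percentile over all non-control spots. Spots of a probe were averaged and spots marked as outliers left out. A probe was tested if it was well above background on at least 2 of 4 arrays of any group (37687 of 56605 probes). Groups were compared with limma 3.58.1 in R 4.3.3, with 6 group means over all 24 arrays and Benjamini-Hochberg adjustment at 0.05. A gene was read by its brightest tested probe over all arrays. Intervals are 95% intervals of that fit. Whether the 4 samples of a group were separate cultures is not given in the labels, so that the p-values measure the spread between these samples.

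The members, the gene lists and the markers were chosen with earlier results of these data known. From each list the text names up to 4 genes with the largest called difference in sham cells at 4 h and at 24 h against 0 h, every gene called between nsPEF and sham, and the 3 genes most correlated with Hspd1. The same was planned for Hspa1b and left out, since most of its values lay below background. Of those for 24 h, the text gives Hspa4l, Cdc37l1, Chordc1 and Ppid. For probes near background, a bound set each dim array at the higher of the probe's own value and the lowest signal well above background on that array. The bound compares group means and carries no sampling error. Promoter windows came from RefSeq (GRCm38.p6). The tests were checked on simulated data. Alternatives tried were other scalings (detected probes, quantile, spike-in probes, probes counted once), normexp background correction with an offset of 50, other filters, marked spots kept, the deposited log2 values, a plain analysis of variance, array weights, the mean of a gene's probes, centring within 16 rows of spots, a replicate block and leaving out arrays.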

Additional observations from a re-analysis of the deposited data

Results flagged for a closer look

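Within each group of 4 arrays, the values of the 19 probes were screened for an array whose gap to the nearest of the others, over the range of the group, exceeded the 95% critical value of Dixon's test for 4 values. This held in 8 of 114 groups, where chance gives about 1 in 20. In 4 of the 8 the array was S4 replicate 4, low for the brightest probes of Hsp90aa1 (6.00, others 6.29 to 6.32), Hspa8 (6.24, others 6.82 to 6.93), Hspd1 (6.57, others 6.89 to 6.92) and Hspe1 (5.87, others 6.34 to 6.38). This array had the highest 75th percentile of all and deviated by a median of -0.38 over the 814 probes above 6 on the log2 scale. In the same group, replicate 2 was high for the brightest Hsph1 probe (3.98, others 3.83 to 3.86). E4 replicate 1 was high for Hspb1 (-2.43, others -6.20 to -5.58) and was the array of that group on which Hspb1 was well above background. E24 replicate 3 was low for the second Hsp90aa1 probe (5.62, others 5.85 to 5.87), and S24 replicate 3 was high for the second Hspe1 probe (5.84, others 5.70 to 5.72).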

How the results depend on the processing

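Over the alternatives, 405 of 423 counts of heat shock genes called stayed within 1.5 times the reported count and 18 moved. Of 3807 single differences, 3682 stayed on their side of the threshold (140 of them with another sign, 0 of which were past it), 35 fell below it, 73 rose above it and 17 that passed in the reported fit or under the alternative changed sign, all under spike-in scaling. That scaling gave 8 genes in place of 4 for sham cells at 24 h against 0 h, 6 in place of 3 for nsPEF at 24 h against 0 h, 2 in place of 6 for nsPEF at 24 h against 4 h, 4 in place of 2 for nsPEF at 4 h against 0 h and 1 in place of 0 (Hsp90aa1) for nsPEF against sham at 4 h. Those 17 values were, in sham cells, Hspa8 0.52, Dnajb1 0.48, Hsp90aa1 0.52 and Bag3 0.31 at 24 h against 0 h and Hspa8 0.43, Dnajb1 0.14, Hsp90aa1 0.52, Bag3 0.14 and Hspd1 0.32 at 24 h against 4 h. In nsPEF-exposed cells they were Hspa8 0.40, Dnajb1 0.38 and Bag3 0.0835 at 24 h against 0 h and Hspa8 0.11, Dnajb1 0.15, Hsp90aa1 0.25, Bag3 0.0657 and Hspd1 0.0628 at 24 h against 4 h. Array weights, chosen after the data were seen, gave 7 in place of 4 for sham at 24 h against 4 h and 4 in place of 2 for nsPEF at 4 h against 0 h, and the mean of a gene's probes also gave 4 there. For nsPEF against sham at 4 h, fitting all probes gave 1 gene (Hspa1a, above background on 1 of the 8 arrays) and centring within 16 rows of spots gave 2. The cause of these changes was not tested.

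Leaving out arrays gave 3 to 7 genes for sham at 4 h against 0 h (7 without S4 replicate 4), 2 to 5 for sham at 24 h against 0 h (2 without replicate 3 of every group), 4 to 6 for sham at 24 h against 4 h, 2 to 4 for nsPEF at 4 h against 0 h (4 without E0 replicate 2, S4 replicate 4 or replicate 4 of every group), 3 to 4 for nsPEF at 24 h against 0 h and 4 to 7 for nsPEF at 24 h against 4 h. For nsPEF against sham it gave 0 at 0 h, 0 to 1 at 4 h (1 without S4 replicate 4) and 0 to 1 at 24 h and in the interaction (1 without E24 replicate 3). Without S4 replicate 4 the probes called between nsPEF and sham at 4 h numbered 1079 (2.86%).

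The sham and nsPEF samples share replicate numbers, but the labels do not say what a number marks. The 12 pairs of one time and number correlated at -0.05 to 0.10 in their deviations (median 0.05), with 0 over 0.1. The 36 pairs of one time with different numbers had a median of -0.01, also with 0 over 0.1. Of 24 arrays, 14 correlated best with their own number among the 4 arrays of the other treatment on the slide. Whether the numbers mark pairs was not tested. With the number as a replicate block, the genes called were 4 (sham at 4 h against 0 h), 4, 4, 2, 4 in place of 3 (nsPEF at 24 h against 0 h), 6 and 0 at each time for nsPEF against sham, and the probes called between nsPEF and sham were 54 in place of 39 at 0 h, 1315 in place of 1312 at 4 h and 2078 in place of 1986 at 24 h. Hspa1a, Hspa1b and Hspb1 lay near background, where differences are bounds at best.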
